A study of Mus musculus with 12 samples.

Results

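Potassium channel genes were described in CD8 T cells sorted from the spleens of mice that lack linker histone H1 genes and of wild-type mice. The members are the 96 genes, of 24421 in the authors' deposited table, whose symbol begins with Kcn, the root of the potassium channel names, followed by a family letter and a number. The imprinted transcript Kcnq1ot1, which lies within a channel gene and encodes none, was left out. The symbols take in pore-forming subunits, their accessory subunits and 3 transcripts named as antisense to a member.

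The study sorted B cells and both CD4 and CD8 T cells of C57BL/6 mice into Trizol, 500000 cells a sample, and sequenced polyadenylated RNA with paired ends. Its 12 samples form 6 groups of 2 animals. The groups compared here were CD8 T cells labelled cTKO, from 1 male and 1 female, and CD8 T cells labelled WT, from 1 female and 1 male. The other cell types were not analysed here. cTKO stands for the loss of 3 linker histone H1 genes, Hist1h1c, Hist1h1d and Hist1h1e; the labels give the genotype as cTKO alone, and neither an age nor the way the genes were deleted.

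Potassium channels let potassium leave the cell and so hold the membrane potential negative. In T cells this keeps up the driving force for calcium that enters through the store-operated channel Orai1 after antigen contact, and calcium in turn activates calcineurin and the NFAT transcription factors. The best known channels of T cells are Kcna3 (Kv1.3, opened by depolarisation) and Kcnn4 (KCa3.1, opened by calcium bound to calmodulin), while two-pore channels such as Kcnk5 (TASK-2) carry background current and take part in volume regulation. H1 is the histone that sits outside the nucleosome core, on the linker DNA, where it favours folding of the chromatin fibre.

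The windows shown here lie before a transcript start of the channel genes that the results turn on: Kcnj8 and Kcnk5, the higher genes with the smallest p, Kcnn4, which was lower in cTKO cells, and Kcna3, which did not pass the test. Each is 250 bases long, ends at the base before the single RefSeq start that the sequence table used gives for the gene (GRCm38.p6), and is written 5′ to 3′ along the gene's own strand, with the dinucleotide CG, which reads the same on both strands, in capitals. The windows are chr6:142571615-142571864 (minus strand) for Kcnj8, chr14:20181783-20182032 (minus strand) for Kcnk5, chr7:24370013-24370262 (plus strand) for Kcnn4 and chr3:107035912-107036161 (plus strand) for Kcna3. For Kcnj8, Kcnk5 and Kcna3 that start is the outer end of the RefSeq gene, while for Kcnn4 it lies 437 bases inside it, so the Kcnn4 window is within the annotated gene.
Kcnj8: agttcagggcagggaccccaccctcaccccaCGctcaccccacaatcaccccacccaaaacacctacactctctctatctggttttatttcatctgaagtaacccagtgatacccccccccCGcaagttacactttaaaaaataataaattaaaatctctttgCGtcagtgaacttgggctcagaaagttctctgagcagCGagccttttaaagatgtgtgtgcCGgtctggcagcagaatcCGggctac
Kcnk5: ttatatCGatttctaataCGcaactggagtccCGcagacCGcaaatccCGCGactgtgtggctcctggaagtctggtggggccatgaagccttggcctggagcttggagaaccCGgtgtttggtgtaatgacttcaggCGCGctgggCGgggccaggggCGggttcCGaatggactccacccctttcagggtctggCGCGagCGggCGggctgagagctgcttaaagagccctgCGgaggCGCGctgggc
Kcnn4: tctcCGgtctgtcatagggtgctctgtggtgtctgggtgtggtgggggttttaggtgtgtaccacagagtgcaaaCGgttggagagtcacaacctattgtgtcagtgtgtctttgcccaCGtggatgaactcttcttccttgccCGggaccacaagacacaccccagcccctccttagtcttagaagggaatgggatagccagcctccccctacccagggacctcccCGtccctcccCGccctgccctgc
Kcna3: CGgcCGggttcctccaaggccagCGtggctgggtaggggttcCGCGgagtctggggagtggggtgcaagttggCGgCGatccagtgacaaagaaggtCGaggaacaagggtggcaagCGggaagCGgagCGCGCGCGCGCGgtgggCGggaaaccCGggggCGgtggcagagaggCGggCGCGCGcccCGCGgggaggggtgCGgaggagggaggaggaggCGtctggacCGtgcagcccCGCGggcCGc
The Kcnj8 window held 6 CG, that of Kcnk5 19, that of Kcnn4 6 and that of Kcna3 31. Across all 18281 genes with such a window the median was 10 CG, and 50.4% of windows had at least 10. The higher genes and those that were not higher both include windows rich and poor in CG.

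The deposited table gives one row per gene and no value per animal. The reads of each library were therefore recovered from every gene's deposited mean, fold change and standard error, which gave whole reads for all 96 members in each of the 4 libraries. The libraries are called larger and smaller within each genotype, with 12059684 and 8158673 reads in the cTKO libraries and 13145870 and 8899625 in the WT libraries over the genes that could be solved; values are given in this order, larger library first. Xist, expressed in females, had 4871 and 28 reads in the cTKO libraries and 479 and 2 in the WT libraries, so the larger library of each genotype goes with the female animal and library size cannot be told apart from sex. Of the deleted genes, Hist1h1c had 0 and 0 reads in cTKO cells against 41 and 56 in WT cells, Hist1h1e 0 and 0 against 64 and 112, and Hist1h1d 0 and 0 against 5 and 11. The direction of the fold change is not stated in the table and was read from these 3 genes, so they are no separate check of the labels, and an inverted reading would turn every direction given here. The CD8 T cell markers were high, with deposited means of 20303 normalized reads for Cd8a and 31813 for Cd8b1 in the authors' deposited table. Of 5 such markers 0 were called, beside 9.77% of all tested genes called higher and 3.61% called lower. At an unadjusted DESeq2 p under 0.05, 1 of them, Cd3g, was lower, and limma called 0 of the 2 that it could test.

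Of the 96 genes, 25 had no read in any library, 38 had reads but too few to be given an adjusted p by the authors, and 33 were tested. The 33 were kept on their mean over all 4 libraries, and 4 of them had reads in cTKO cells alone. In the authors' deposited table, 8 of the 33 were higher in cTKO cells and 1 was lower at an adjusted p (DESeq2) under 0.05. Across all 12972 tested genes 9.77% were called higher and 3.61% lower. The 8 higher genes were Kcnj8, Kcnk5, Kcnip3, Kcnq5, Kcnc1, Kcnab2, Kcnk1 and Kcna4, and the lower one was Kcnn4. The tested members had a median log2 fold change of 1.19, beside 0.04 over all tested genes. Of the 33, 27 were positive, beside 6737 of all 12972. This comparison was not matched for level, since 9 of the 33 had a mean of at least 100, beside 9268 of the 12972. Among the 9 members with a mean of at least 100 normalized reads, 6 were higher and 1 lower, beside 8.09% and 4.46% of all 9268 genes at that level.

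**Figure D1:**
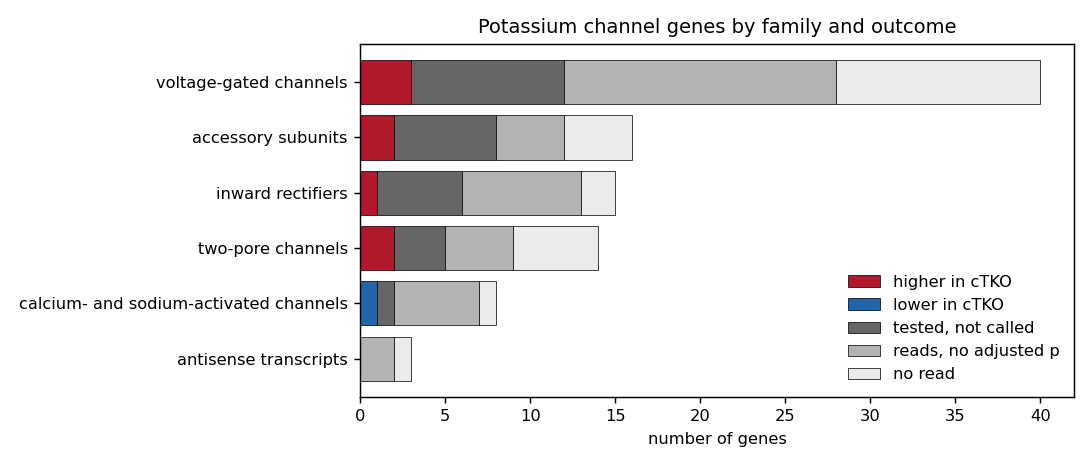
Number of potassium channel genes (x axis) in each family (y axis), split by outcome in CD8 T cells: higher in cTKO, lower in cTKO, tested and not called, reads without an adjusted p, and no read. Calls lie in 5 of the 6 families, and the 40 voltage-gated genes hold 12 with no read.

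The inward rectifiers, which pass potassium more easily into the cell than out of it, included the member with the smallest p, Kcnj8. Kcnj8 (Kir6.1), the pore subunit of a channel closed by ATP, had 2474 and 1808 reads in cTKO cells against 139 and 102 in WT cells. Scaled for library size these were 2049 and 2246 normalized reads in cTKO cells and 114 and 118 in WT cells. Both cTKO animals stood far above both WT animals, and the 2 animals of a genotype lay close together. Kcnj8 was 18.5-fold higher (adjusted p 1.43e-36, log2 fold change 4.21 with an SE of 0.32) in the authors' deposited table. This call held in 10 of 10 alternative analyses, including those that left out 1 library.

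Kcnj8 channels are assembled with a sulfonylurea receptor, encoded by Abcc8 or Abcc9, which sets their response to nucleotides. Abcc9 had 3 and 3 reads in cTKO cells against 0 and 0 in WT cells, and Abcc8 had 2 and 0 against 0 and 0. Kcnj11, the other pore subunit that uses these receptors, had 0 and 4 reads in cTKO cells and 0 and 0 in WT cells. Reads of the receptors were thus far fewer than those of the pore subunit in cTKO cells. Kcnj8 is also known from pericytes and smooth muscle; the summed level of 7 markers of those cells was 41.4 and 6.21 normalized reads in cTKO cells and 8.23 and 9.24 in WT cells, with 1 and 5 of the 7 at 0 in cTKO libraries and 5 and 5 in WT libraries. Notch3, Myh11, Cspg4, Des and Rgs5 were read in the larger cTKO library alone, with 27, 7, 5, 1 and 1 reads. Pdgfrb had 0 and 1 reads in cTKO cells against 6 and 4 in WT cells, and Acta2 had 9 and 4 against 4 and 4.

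All 15 inward rectifier genes together had 2133 and 2342 normalized reads in cTKO cells and 147 and 149 in WT cells, of which Kcnj8 made up 96.0% in cTKO and 78.6% in WT. The other tested members were low and did not pass: Kcnj16 (Kir5.1), a subunit that pairs with other Kir channels, had 50 and 46 reads in cTKO cells against 31 and 15 in WT cells, and Kcnj13, Kcnj14, Kcnj1 and Kcnj10 had at most 16 reads in any library. Kcnj2, a classical inward rectifier of muscle and macrophages, had 1 read in all, and Kcnj3 and Kcnj4 had none.

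Among the two-pore channels, which form background potassium currents, 2 of 5 tested genes were higher, beside 9.77% of all tested genes. Kcnk5, which is opened by alkaline pH outside the cell and by cell swelling, had 1813 and 490 reads in cTKO cells against 73 and 62 in WT cells. These were 1502 and 609 normalized reads in cTKO cells and 60.1 and 71.6 in WT cells, so the cTKO animals differed from each other 2.47-fold and both were well above WT. Kcnk5 was 16.1-fold higher (adjusted p 4.95e-17, log2 fold change 4.01 with an SE of 0.44) in the authors' deposited table. Without the larger cTKO library the log2 fold change in limma on recovered reads was 3.20 and its adjusted p 0.0853.

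Kcnk1 (TWIK-1), a channel of very low current, had 72 and 6 reads in cTKO cells and 0 and 0 in WT cells. The larger cTKO library held 88.9% of its normalized reads. With both cTKO libraries pooled and scaled, Kcnk1 was 26.9-fold above the 3 reads that a count of 0 over both WT libraries allows. That value rests mostly on the larger cTKO library and is no lower limit for each animal. The smaller cTKO library held 7.45 normalized reads. The authors' deposited table gave Kcnk1 an adjusted p of 0.00104. Kcnk1 shares 179 of its 2235 exon bases with an annotated transcript on the other strand, Gm45875, whose reads cannot be told apart because strand handling is not stated.

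The other two-pore genes known in T cells were not called. Kcnk7, a silent subunit, had 75 and 85 reads in cTKO cells against 37 and 23 in WT cells (adjusted p 0.0826, log2 fold change 1.55 with an SE of 0.63 in the authors' deposited table), and was called with the sex of the library as a term in limma (adjusted p 0.0174). Kcnk6 (TWIK-2) had 70 and 14 reads in cTKO cells and 55 and 37 in WT cells, so its groups overlapped, and its adjusted p was 0.895 by the authors' deposited table. Kcnk18 (TRESK), which calcineurin activates, had no read in any library, nor had Kcnk2, Kcnk9, Kcnk15 and Kcnk16.

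The voltage-gated channels open on depolarisation and formed the largest family, with 40 genes. Of these 12 were tested and 3 were higher in cTKO cells, beside 9.77% of all tested genes. Kcnc1 (Kv3.1), a fast delayed rectifier described in mouse CD8 T cells as the l-type current, had 742 and 330 reads in cTKO cells against 203 and 209 in WT cells. These were 615 and 410 normalized reads in cTKO cells and 167 and 241 in WT cells, without overlap. Kcnc1 was 2.52-fold higher (adjusted p 0.00865, log2 fold change 1.33 with an SE of 0.39) in the authors' deposited table. Leaving out any 1 of the 4 libraries in limma ended this call, with adjusted p between 0.0683 and 0.403 and log2 fold changes between 1.03 and 1.61.

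Kcnq5 (Kv7.5), which carries a slow non-inactivating current in neurons and smooth muscle, had 320 and 177 reads in cTKO cells against 26 and 38 in WT cells. The cTKO animals were close after scaling, at 265 and 220 normalized reads, against 21.4 and 43.9 in WT animals. Kcnq5 was 7.53-fold higher (adjusted p 3.68e-07, log2 fold change 2.91 with an SE of 0.50) in the authors' deposited table. Without the larger or the smaller cTKO library its limma adjusted p was 0.205 or 0.0771, at log2 fold changes of 2.82 and 3.09. Gm26580, on the other strand, shares 237 of its 7689 exon bases.

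Kcna4 (Kv1.4), a rapidly inactivating channel, had 47 and 4 reads in cTKO cells and 0 and 0 in WT cells. The larger cTKO library held 88.7% of its normalized reads. With both cTKO libraries pooled and scaled, Kcna4 was 17.6-fold above 3 reads over both WT libraries, which again is no lower limit for each animal. The smaller cTKO library held 4.97 normalized reads. The authors' deposited table gave Kcna4 an adjusted p of 0.00713. Kcna4 and Kcnk1 thus had the same shape, with no WT read and most reads in 1 cTKO library, and without that library 4 reads of Kcna4 and 6 of Kcnk1 remain.

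Kcna3, the main voltage-gated channel of T cells, had 3106 and 1188 reads in cTKO cells against 1265 and 1556 in WT cells. After scaling these were 2572 and 1476 normalized reads in cTKO cells and 1042 and 1797 in WT cells. The groups overlapped, since the smaller WT library lay between the cTKO libraries, and in the authors' deposited table its adjusted p of 0.407 did not pass the test, with a log2 fold change of 0.51 and an SE of 0.38. Kcna2 (Kv1.2), which can assemble with Kcna3, had 688 and 175 reads in cTKO cells against 249 and 154 in WT cells. Its cTKO libraries lay above the WT libraries, at 570 and 217 against 205 and 178 normalized reads, and in the authors' deposited table its adjusted p of 0.123 did not pass either, with a log2 fold change of 1.04 and an SE of 0.47.

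The remaining tested voltage-gated genes were lower in level. Kcnh3, a channel of the ether-a-go-go family, had 27 and 26 reads in cTKO cells and 85 and 90 in WT cells, both cTKO libraries below both WT libraries, with a log2 fold change of -1.68 (SE 0.63) and an adjusted p of 0.0537 in the authors' deposited table. With the sex of the library as a term in limma, Kcnh3 was called lower (adjusted p 0.00688). Kcnh2 (hERG) had 61 and 19 reads in cTKO cells and 17 and 22 in WT cells. After scaling, the smaller cTKO library lay within the WT range and the larger one above it. Kcnq1, a cardiac and epithelial channel, had 1 read in all, in the larger cTKO library.

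**Figure D2:**
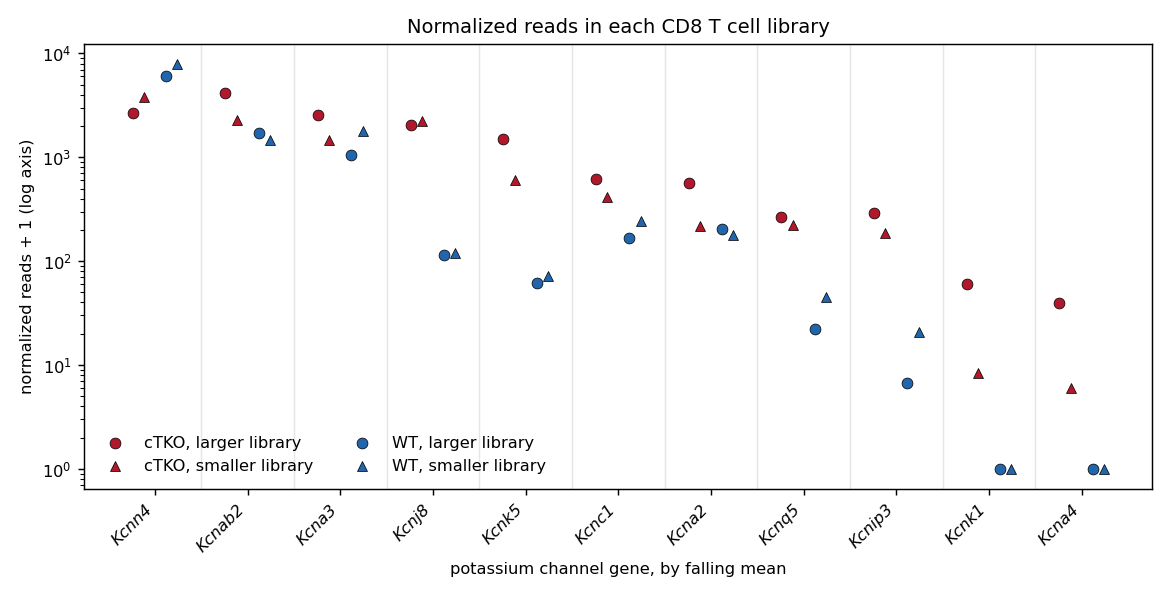
Normalized reads plus 1 on a log axis (y) for the 9 called potassium channel genes and for Kcna3 and Kcna2 (x, by falling mean), in the 2 cTKO libraries (red) and the 2 WT libraries (blue), with circles for the larger and triangles for the smaller library of each genotype. Kcnj8 has close pairs, Kcnk1 and Kcna4 have no WT read, and the Kcna3 groups overlap.

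Kcnn4 was the 1 member called lower in the authors' deposited table, beside 3.61% of all tested genes. It was the only one of the calcium- and sodium-activated channels to be called of the 2 tested. It had 3222 and 3081 reads in cTKO cells against 7442 and 6819 in WT cells. These were 2669 and 3828 normalized reads in cTKO cells and 6128 and 7874 in WT cells, with no overlap. The authors' deposited table gave Kcnn4 an adjusted p of 0.00717 and a log2 fold change of -1.11 with an SE of 0.32, a level 2.16-fold lower in cTKO cells. Leaving out any 1 library in limma ended the call, with log2 fold changes between -1.38 and -0.86 and adjusted p between 0.0650 and 0.315. Kcnma1 (BK), a channel opened by both calcium and voltage, had 14 and 6 reads in cTKO cells and 0 and 0 in WT cells (adjusted p of 0.0878 by the authors' deposited table), and Kcnn2 had no read.

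Accessory subunits, which bind channels and alter their gating or transport, held 2 higher genes among 8 tested, beside 9.77% of all tested genes. Kcnip3, a calcium-binding protein that binds Kv4 channels and is also known as the transcriptional repressor DREAM, had 349 and 150 reads in cTKO cells against 7 and 17 in WT cells. These were 289 and 186 normalized reads in cTKO cells and 5.76 and 19.6 in WT cells. It was 19.4-fold higher (adjusted p 8.70e-11, log2 fold change 4.28 with an SE of 0.60) in the authors' deposited table, and its limma adjusted p was 0.205 without the larger and 0.0743 without the smaller cTKO library, at log2 fold changes of 4.06 and 4.69. The Kv4 pore subunits themselves were nearly unread, with 2 and 5 reads of Kcnd1 in cTKO cells against 0 and 3 in WT cells, 1 read of Kcnd2 and none of Kcnd3. The related Kcnip2 had 118 and 79 reads in cTKO cells and 41 and 39 in WT cells and was not called (adjusted p of 0.102 by the authors' deposited table), but was with the sex of the library as a term in limma (adjusted p 0.0290).

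Kcnab2, the cytosolic beta subunit of Kv1 channels such as Kcna3, was the accessory gene with most reads, 5033 and 1838 in cTKO cells against 2096 and 1263 in WT cells. These were 4168 and 2283 normalized reads in cTKO cells and 1726 and 1458 in WT cells, and both cTKO animals lay above both WT animals. Kcnab2 was 2.03-fold higher (adjusted p 0.0336, log2 fold change 1.02 with an SE of 0.35) in the authors' deposited table. The limma fit to all 4 libraries gave it an adjusted p of 0.106. Gm16334, on the same strand, shares 125 of its 5578 exon bases.

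**Figure D3:**
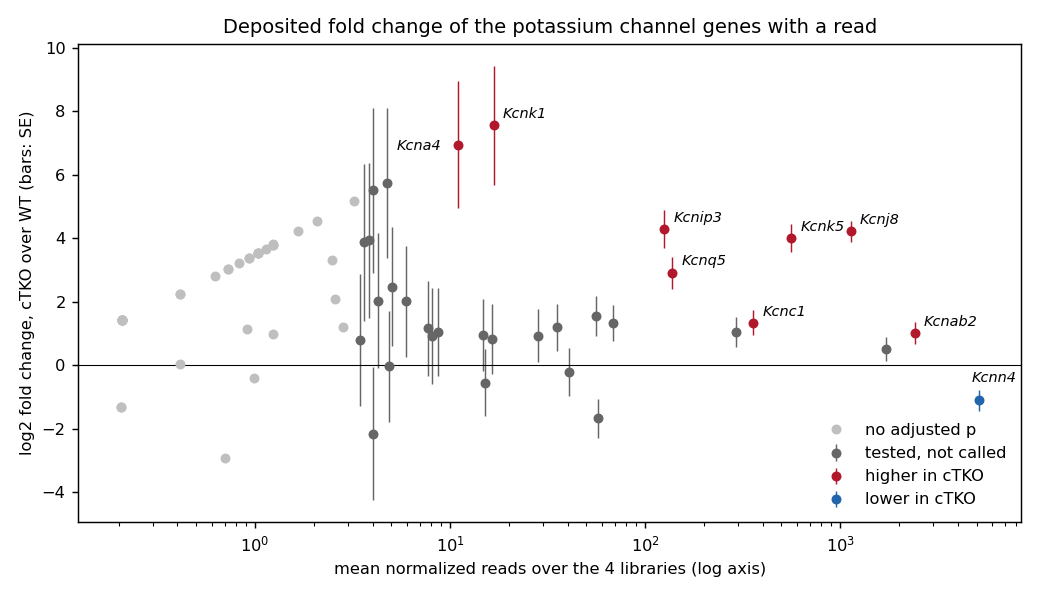
Deposited log2 fold change, cTKO over WT (y), against the mean normalized reads over the 4 libraries on a log axis (x) for the 71 potassium channel genes with a read; bars are standard errors, left out for genes without an adjusted p, and colours give the call. Genes at the left with single reads run along curves set by which library held the reads, and the called genes reach from a mean of 10.97 for Kcna4 to 5124 for Kcnn4.

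Divided by annotated exon length, the order of the channel genes differed between the genotypes. In cTKO cells the mean levels per kb of exon were 1064 normalized reads for Kcna3, 843 for Kcnj8, 635 for Kcnn4, 578 for Kcnab2 and 310 for Kcnk5. In WT cells they were 1369 for Kcnn4, 746 for Kcna3, 285 for Kcnab2, 45.6 for Kcnj8 and 19.4 for Kcnk5. The neighbours in the WT order from Kcnn4 to Kcnj8 did not overlap between libraries, while Kcnk5 overlapped with Kcnc1, at 17.7 and 21.03 against 17.7 and 25.5 per kb. In cTKO cells Kcna3, at 1353 and 776, overlapped with Kcnj8, at 804 and 882, and Kcnn4, at 522 and 748, overlapped with Kcnab2, at 747 and 409. Only 1902 bases of exon are annotated for Kcna3, and its level per kb depends on that length. Kcnj8 reads stood at the level of the known T cell channels in cTKO cells and well under it in WT cells.

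All 96 genes together had 15417 and 11966 normalized reads in cTKO cells and 9754 and 12167 in WT cells. The genotypes overlapped in this sum, with a ratio of 1.25 for cTKO over WT. Kcnn4 made up 23.7% of the sum in cTKO cells and 63.9% in WT cells. It had most normalized reads of all members in both WT libraries and in the smaller cTKO library, while Kcnab2 had most in the larger cTKO library.

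Of the 33 tested members, 21 had both cTKO libraries above both WT libraries, beside 31.8% of all tested genes with recovered reads, and 3 had both below, beside 27.7%. The 3 were Kcnn4, Kcnh3 and Kcnmb4. All 9 called members were among those without overlap. A call with 2 animals against 2 itself favours groups that do not overlap, so this is no separate result about the channels. For a single gene, an exact permutation test of 2 animals against 2 cannot give a two-sided p below 0.333. Fewer cells that express a gene and less of its RNA per cell cannot be told apart in these bulk samples.

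The larger cTKO library held more of the weakly read channel genes than any other. A read was seen for 66 members in the larger and 45 in the smaller cTKO library, against 35 and 32 in the WT libraries. The 38 members without an adjusted p had 116 and 25 reads in cTKO cells against 9 and 8 in WT cells, with at most 14 reads of a gene in a library. The larger cTKO library thus held 73.4% of these reads, beside 63.6% over all 5181 such genes, and 19 of the 38 genes (50%) were read there alone, beside 51.3% of all such genes. Among the genes called higher, this library exceeded the smaller cTKO library by over 2-fold in 3 of 8 members (37.5%) and in 408 of 1245 genes (32.8%). The weakly read channels followed the pattern of all weakly read genes, and what sets this library apart was not tested.

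**Figure D4:**
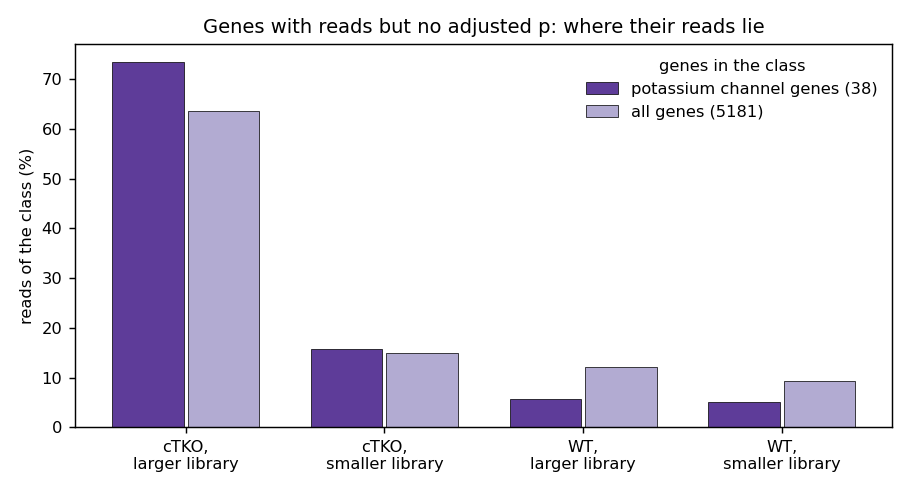
Share of all reads, in percent (y), that each of the 4 libraries (x) holds of the genes with reads but no adjusted p, for the 38 potassium channel genes (dark) and for all 5181 genes (light). The larger cTKO library holds 73.4% and 63.6%.

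Of the 25 genes with no read, 12 were voltage-gated, 5 two-pore, 4 accessory and 2 inward rectifiers, and the others were Kcnn2 and the antisense transcript Kcnd3os. They were 26.0% of the members, beside 25.7% of all genes in the table without a read. A count of 0 allows up to 3 reads in a library. The silent genes included the cardiac subunits Kcna5 and Kcne1 and the Kv2 modifiers Kcng1, Kcng2, Kcng4, Kcns2, Kcns3 and Kcnv1. Of the 17 silent members with a promoter window, 29.4% had at least 10 CG, beside 14.7% of all silent genes. Of the 8 higher members 50% did, beside 64.5% of all higher genes. For 2 of these 8, Kcnk1 (0 CG) and Kcnc1 (30 CG), the start used lies 1447 and 249 bases inside the annotated gene.

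Silent and expressed channel genes lay side by side in the genome. On chromosome 3 the Kv1 genes Kcna3 (chr3:107036162-107038129), Kcna2 (chr3:107090883-107115005) and Kcna10 (chr3:107183143-107195721) are neighbours on the plus strand, and Kcna10 had no read. On chromosome 14 Kcnk5 (chr14:20140057-20181782) lies next to Kcnk16 (chr14:20261375-20269269), both on the minus strand, and Kcnk16 had no read while Kcnk5 rose. Within 200 kb of the 9 called members lay 67 other genes, of which 41 were tested, 5 were higher and 1 was lower, beside 9.77% and 3.61% of all tested genes. Around Kcnj8 (chr6:142564837-142571614, minus strand) 0 of 5 tested neighbours were called, with 1 lower at an unadjusted DESeq2 p under 0.05 and 0 of 4 called by limma.

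Genes that act with these channels were described from 4 lists. Among 14 partner subunits, 4 were silent, 3 were tested and 0 were called. Hcn3, a cation channel, had 148 and 94 reads in cTKO cells and 105 and 108 in WT cells, and Amigo1, a Kv2 partner, had 136 and 57 against 60 and 19. Neither passed the test (Amigo1 alone had an unadjusted DESeq2 p under 0.05, and limma called 0 of 3). Of 11 genes that modify T cell channels, all of them tested, 1 was higher and 0 were lower, beside 9.77% and 3.61% of all tested genes. The higher gene was Nedd4, a ubiquitin ligase that acts on ion channels. It had 1763 and 1013 reads in cTKO cells against 810 and 601 in WT cells (log2 fold change 1.00, adjusted p of 0.0143 by the authors' deposited table). Limma with a pseudocount of 0.5 did not call Nedd4, with all 4 libraries or with any 1 left out, while a pseudocount of 2 or the sex term did. The other 10, among them Sgk1, Lck and the Kcnn4 activator Nme2, were not called.

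All 23 genes of calcium entry and NFAT were tested, and 5 were higher and 0 lower, beside 9.77% and 3.61% of all tested genes. Their median log2 fold change was 0.48, beside 0.04 over all tested genes. Without adjustment, 9 were higher and 1, Orai1, was lower at p under 0.05 in the authors' deposited table. By limma 3 were higher in place of 5 and 0 were lower, and 0 were higher when either cTKO library was left out. Nfatc2, an NFAT factor, had 3720 and 818 reads in cTKO cells against 433 and 527 in WT cells (adjusted p 0.000169, log2 fold change 2.09 with an SE of 0.46 in the authors' deposited table). Ppp3r1, the regulatory subunit of calcineurin, had 4581 and 2366 reads in cTKO cells and 1104 and 1523 in WT cells (adjusted p 0.00396, log2 fold change 1.34 with an SE of 0.37 in the authors' deposited table). The larger cTKO library was the highest for both genes.

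The plasma membrane calcium pumps, which return calcium to the outside, were higher too. Atp2b1 had 7581 and 3480 reads in cTKO cells against 1841 and 1559 in WT cells (adjusted p 5.42e-06, log2 fold change 1.68 with an SE of 0.32 in the authors' deposited table). Atp2b4 had 348 and 56 reads in cTKO cells against 60 and 22 in WT cells, and its log2 fold change was 2.25 with an SE of 0.65 and an adjusted p of 0.00751 by the authors' deposited table. The smaller cTKO library had fewer raw reads of Atp2b4 than the larger WT library and more after scaling. Itpr3, which releases calcium from stores, had 1741 and 453 reads in cTKO cells against 597 and 310 in WT cells (adjusted p 0.0355, log2 fold change 1.24 with an SE of 0.43 in the authors' deposited table). Orai1, the calcium entry pore, had 637 and 619 reads in cTKO cells and 1285 and 1038 in WT cells and did not pass (adjusted p 0.0943, log2 fold change -0.80 with an SE of 0.34 in the authors' deposited table). Its sensor Stim1 and the calmodulin genes Calm2 and Calm3, whose product gates Kcnn4, were not called.

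Potassium is brought back into the cell by the sodium pump. Of 13 genes of potassium uptake and co-transport, 11 were tested, 1 was higher and 1 was lower, beside 9.77% and 3.61% of all tested genes. The higher gene is not reported here by name. The lower gene was the pump's beta subunit Atp1b1, with 383 and 447 reads in cTKO cells against 1268 and 1009 in WT cells (adjusted p 0.00342, log2 fold change -1.34 with an SE of 0.36 in the authors' deposited table). The genotypes did not overlap for Atp1b1, and leaving out any 1 library in limma ended its call. Atp1b3, the beta subunit with most reads, was not called.

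**Figure D5:**
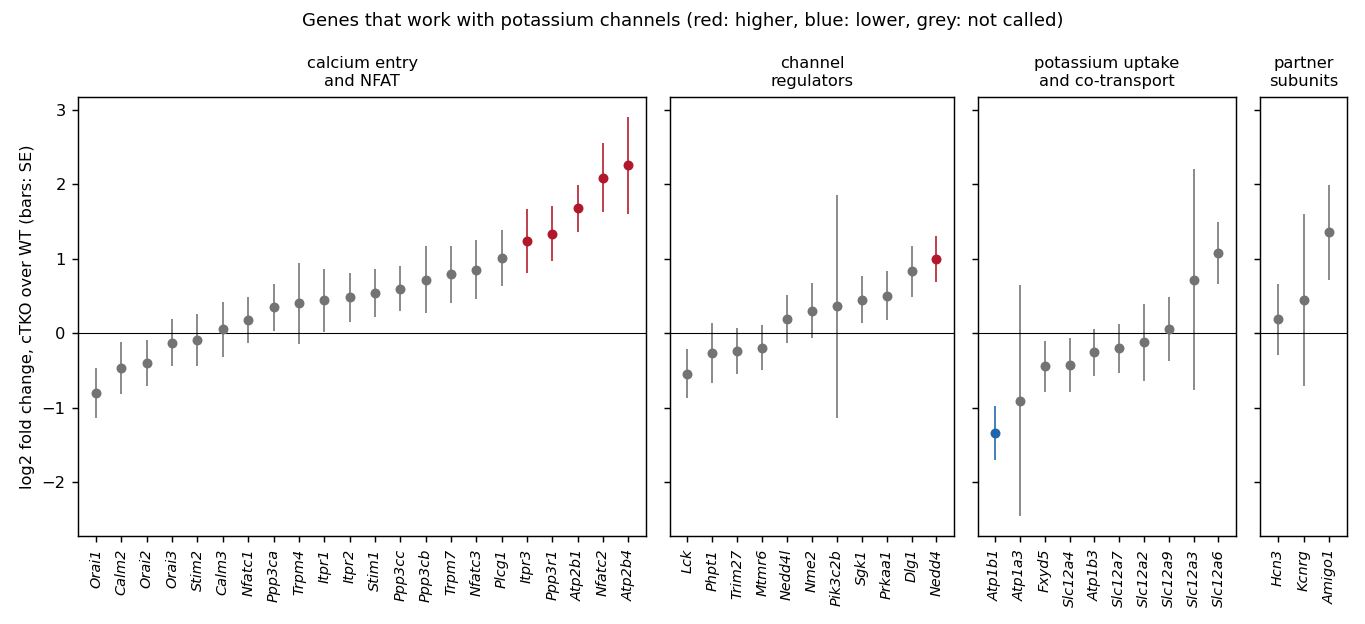
Deposited log2 fold change, cTKO over WT (y), with standard errors as bars, for tested genes (x) of the 4 lists of genes that act with potassium channels; red marks higher, blue lower and grey not called. The highest value is that of Atp2b4 at 2.25 and the lowest that of Atp1b1 at -1.34.

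Markers of other cells moved between the genotypes as well. Of 8 natural killer cell markers, which effector CD8 T cells also express in part, 5 were higher and 1 was lower in cTKO cells. Across all tested genes 9.77% were called higher and 3.61% lower. The markers had a summed level of 8819 and 6646 normalized reads in cTKO libraries and 2611 and 2782 in WT libraries. None of the 8 was at 0 in a library, and the defining receptor Ncr1 had 22 and 1 reads in cTKO cells against 2 and 4 in WT cells. The 7 myeloid markers summed to 626 and 281 normalized reads in cTKO libraries and 110 and 77.4 in WT libraries, with 0 and 3 markers at 0 in cTKO and 2 and 3 in WT. Of 6 tested, 0 were lower and 1 was higher, Itgam, with 359 and 171 normalized reads in cTKO libraries against 28.0 and 34.6 in WT libraries. The 7 B cell markers summed to 940 and 270 normalized reads in cTKO libraries and 1548 and 1124 in WT libraries, with 1 and 0 markers at 0 in cTKO and 1 and 1 in WT. Of 5 tested, 0 were higher and 1, Cd79b, was lower. Cd22, not called, had 748 and 47.2 normalized reads in cTKO libraries against 171 and 151 in WT libraries. The 4 CD4 T cell markers summed to 149 and 73.3 normalized reads in cTKO libraries and 90.6 and 91.2 in WT libraries. Of 3 tested, 1, Zbtb7b, was higher and 0 were lower. Cd4 itself had 1 and 0 reads in cTKO cells and 1 and 4 in WT cells. The part of these cells in the channel results was not tested.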

How the data were processed

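The authors aligned reads with STAR and compared the groups with DESeq2 (builds mm10 and GRCm38.p6), per the submitters' processing notes; for versions, annotation, counting tool and strand, the setting is not given in the sources used here. For each gene the authors deposited a mean normalized read count (a signal), a log2 fold change and standard error, a test score, and p-values before and after adjustment. Genes were called at a deposited adjusted p under 0.05. The members and gene lists were chosen with earlier results of these data known. Genes named are the called members, members with a mean of at least 100, known T cell channels, and genes of the lists that were called or set beside a member; other members were named after their values were seen. Some genes of the lists and some members are not reported here by name.

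Whole reads were recovered as the 4 whole numbers whose scaled sum gives the deposited mean and whose 2-group negative binomial fit returns the deposited fold change within 1e-09 (1e-08 from a log2 fold change of 10). This gave a single solution for 17729 of 17742 genes with a mean under 6000 (99.9%), and simulated reads were recovered in a test. Libraries have a genotype and a size but no animal's name. Normalized reads are reads over size factors, 1.21 and 0.805 for the cTKO and 1.21 and 0.866 for the WT libraries. Floors cover counting error only. limma 3.58.1 (R 4.3.3) was fitted to log2(normalized reads + 0.5) for 11344 genes with a mean of at least 10, a filter added after the data were seen. The labels name separate animals, so the spread is that between animals, and limma also draws on the spread of other genes. Fits with the sex term or without 1 library keep little spread of a gene's own and lean mostly on other genes. Kcnj8 had a limma p of 1.3e-07 from all 4 libraries and of 1.57e-28 with the sex term. These smaller p-values are no stronger evidence about the animals. Positions and promoter sequences are from RefSeq (GRCm38.p6; 70 of 96 members had a window), and exon lengths and overlaps from GENCODE M21.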

Additional observations from a re-analysis of the deposited data

How the results depend on the processing

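Of the called genes, Kcnj8 kept its call in 10 of 10 alternatives, Kcnk5 in 9, Kcnip3 and Kcnq5 in 8, Kcnc1 and Kcnn4 in 6 and Kcnab2 in 4. Kcnk1 and Kcna4 kept theirs in the alternatives that used all libraries. Fits without 1 library say nothing about the stability of these 2 genes. Without a cTKO library their only spread is that of 2 WT libraries at 0. Without a WT library the WT group is a single library at 0. None of the 11 genes followed changed direction. Dropping the filter on the mean, testing only genes with a mean of at least 10 and re-centring all start from the deposited fold changes. They are therefore not separate tests. Kcnab2 kept its call in these alternatives and with the sex term alone. Against 8 higher and 1 lower, limma on recovered reads called 7 and 1 (7.93% and 2.17% of all genes fitted) and a pseudocount of 2 left these counts as they were. With the sex of the library as a term limma called 10 higher and 2 lower (Kcnk7, Kcnip2 and Kcnh3 were added), beside 13.3% and 4.36% of all genes fitted. The p-values of that fit lean mostly on the spread of other genes. A deposited adjusted p under 0.1 gave 10 and 2. Testing only genes with a mean of at least 10 gave 8 and 2. Leaving out 1 library gave 3 to 6 higher and 0 lower: 3 without the larger cTKO library and 4 without the smaller one, both counts with Kcnk1 and Kcna4, where 1.40% and 2.27% of all genes were called higher, and 6 when either WT library was left out. At an unadjusted p under 0.05 these fits had 8 to 10 higher and 1 to 2 lower members. In them the lone library is assumed to vary like the others. Re-centring shifted fold changes by 0.10 and changed neither count. Counting a mean under 1 as silent gave 48 silent genes in place of 25. No paired analysis was possible because the cTKO and WT animals share no replicate number; the fit with the sex term is the one that sets female against female and male against male. Genes with a mean under 3.45 were not tested at this depth.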
